A study of Homo sapiens with 4 samples.

Results

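Cyclins are the regulatory subunits that switch cyclin-dependent kinases (CDKs) on, and 43 human genes of this machinery were followed here: cyclins, CDKs, their INK4 and KIP inhibitors, the enzymes that set the phosphorylation of CDKs, and the pocket proteins that CDKs act on. They were taken as a list of gene symbols by role, chosen with earlier results of these data known. The shares of all genes given beside them are therefore description and do not test the list. Of the 43, 41 had a probe set that names that gene alone, and all 41 were among the 15194 genes tested. CDK8 and CDKN2C were not analysed here, CDK8 because its probe set was annotated with a further gene. Each of the 41 was read from 1 probe set, so none had a second probe set to set beside it.

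RNA came from HK1EBV and HK1, established cell lines of human nasopharyngeal carcinoma, on 1 single-colour array for each of 4 groups. The groups were HK1EBV given 110 µM CAPE, HK1EBV given 0.1% of the solvent dimethyl sulfoxide (DMSO), HK1 given 110 µM CAPE and HK1 given 0.1% DMSO, all for 24 h. CAPE, caffeic acid phenethyl ester, is a phenolic compound found in propolis. HK1EBV is read from its name as HK1 carrying Epstein-Barr virus, and the labels do not say how the virus was introduced or whether the line is a clone. The labels name no separate cultures or days, so no p-value here measures the spread between cultures. In the fit with a term for line and a term for CAPE, each p-value rests on these 4 arrays alone. It depends on how unlike the CAPE difference was in the lines, for that gene and pooled over all genes tested. The array medians were 2.23, 2.25, 2.27 and 2.25 on the log2 scale for HK1EBV CAPE, HK1EBV DMSO, HK1 CAPE and HK1 DMSO. Of the epithelial markers KRT5, EPCAM, CDH1 and KRT18 stood at percentiles 99.7, 98.1, 98.3 and 94.8 of all probe sets and KRT8 and KRT19 at 54.1 and 56.1. Markers of leukocytes and endothelium lay between percentiles 7 and 49, and those of fibroblasts between 37.5 and 64.9. These ranges overlap, and ranks of different probes do not settle the identity of the cells.

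D-type cyclins with CDK4 and CDK6 act in G1 and phosphorylate the retinoblastoma protein, which releases E2F factors. Cyclins E and A with CDK2 then drive entry into and passage through S phase, and cyclins B and A with CDK1 drive mitosis. INK4 proteins bind CDK4 and CDK6, while KIP proteins bind cyclin-CDK2 complexes. A further set of cyclins and CDKs (cyclin H with CDK7, T with CDK9, K with CDK12 and CDK13, C with CDK8) acts mainly on RNA polymerase II and its transcription, and not on a phase of the cycle. RNA of cyclins A2, B1 and F normally builds up towards G2 and mitosis, so in bulk RNA a smaller share of cells in a phase and less RNA per cell cannot be told apart.

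Cell cycle genes of G2 and mitosis often carry CCAAT boxes, bound by the factor NF-Y, and a CHR element, bound by the DREAM and MuvB complexes. The promoters of 4 cyclin and CDK genes are shown, all of them lower with CAPE in both lines. Their mean differences in log2 units were -1.10 for CCNB1, -0.69 for CCNA2, -0.37 for CCNB2 and -0.20 for CDK1. CCNB2 and the mitotic kinase CDK1 neither reached 1.5-fold nor passed a test below. The sequences are RefSeq's on GRCh38.p14, from 250 bases before to 50 bases from the start of the gene, written 5′ to 3′ on the strand of the gene. CCNB1 lies at chr5:69166900-69167199 on the plus strand and CCNA2 at chr4:121823834-121824133 on the minus strand. CCNB2 lies at chr15:59104896-59105195 and CDK1 at chr10:60778081-60778380, both on the plus strand. Capitals mark CCAAT boxes (CCAAT, or ATTGG for the other strand), CHR elements (TTTGAA or TTCGAA, both strands searched) and the cyclic AMP response element TGACGTCA.
CCNB1: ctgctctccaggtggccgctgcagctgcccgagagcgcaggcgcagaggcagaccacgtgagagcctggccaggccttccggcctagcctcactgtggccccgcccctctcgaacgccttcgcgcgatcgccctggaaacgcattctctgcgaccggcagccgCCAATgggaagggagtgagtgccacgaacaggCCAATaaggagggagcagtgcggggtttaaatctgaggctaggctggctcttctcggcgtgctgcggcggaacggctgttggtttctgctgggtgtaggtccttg
CCNA2: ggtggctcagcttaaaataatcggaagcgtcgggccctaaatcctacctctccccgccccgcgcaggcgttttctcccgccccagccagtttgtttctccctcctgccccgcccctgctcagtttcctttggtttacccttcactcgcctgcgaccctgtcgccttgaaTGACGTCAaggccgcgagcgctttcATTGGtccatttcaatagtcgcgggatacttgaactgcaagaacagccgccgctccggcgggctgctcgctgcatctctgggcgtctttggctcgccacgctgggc
CCNB2: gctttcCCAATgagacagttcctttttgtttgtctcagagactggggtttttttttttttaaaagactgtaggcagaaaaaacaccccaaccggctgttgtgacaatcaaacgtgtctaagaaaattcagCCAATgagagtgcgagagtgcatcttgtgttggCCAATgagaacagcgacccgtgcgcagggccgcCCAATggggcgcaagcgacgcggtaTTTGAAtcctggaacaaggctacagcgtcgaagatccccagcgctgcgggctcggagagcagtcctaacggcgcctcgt
CDK1: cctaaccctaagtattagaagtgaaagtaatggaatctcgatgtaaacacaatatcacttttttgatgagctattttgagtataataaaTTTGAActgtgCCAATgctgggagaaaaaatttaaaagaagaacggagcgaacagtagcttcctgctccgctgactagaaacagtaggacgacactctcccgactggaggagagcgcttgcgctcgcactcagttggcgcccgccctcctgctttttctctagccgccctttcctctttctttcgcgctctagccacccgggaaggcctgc

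In these windows CCNB1 held 2 CCAAT boxes, at -87 and -55 from the start and 32 bases apart, and no CHR match. Only the spellings named above were searched, so a promoter without a match was not shown to lack a CHR element. CCNB2 held 4 CCAAT boxes, of which those at -120, -87 and -54 followed each other at 33 bases, and a CHR match at -29. CCNA2 held 1 CCAAT box on the other strand at -56 and a cyclic AMP response element at -81, and CDK1 held 1 CCAAT box and 1 CHR match. Of 27056 distinct promoters of this length, 35.7% held a CCAAT box, 11.3% at least 2 of them, 16.6% a CHR match and 6.61% both kinds. Among the 37 listed genes with a promoter sequence the counts were 14, 7, 6 and 5. Matches were found in genes of either direction with CAPE. CCNF, lower in both lines, held 4 CCAAT boxes and 2 CHR matches. CDKN1B, CCNL2 and CCNT1, higher in both lines, held 3, 2 and 1 CCAAT boxes. Whether the motifs go with the CAPE differences was not tested.

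The first comparison asked how RNA of these genes differed with CAPE. The mitotic cyclins CCNB1 and CCNF and the S and G2 cyclin CCNA2 were at least 1.5-fold lower with CAPE in both lines, and the CDK4 and CDK6 inhibitor CDKN2B and the atypical cyclin CCNG2 were at least 1.5-fold higher in both. No other member (0) reached 1.5-fold in one direction in both lines. Thus 3 of 41 were lower by this rule, against 1.56% of all genes tested, and 2 of 41 higher, against 1.35%. Whatever the size, 20 of the 41 were lower in both lines (29.5% of all genes), 9 were higher in both (32.1%) and 12 had opposite signs (35.7%). The median over the 41 was -0.08 in HK1EBV and -0.14 in HK1, and over all genes tested it was 0.00 and 0.02.

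In the gene-wise test 0 of the 41 passed for CAPE, against 1 of all 15194 genes, or 0.00658% (limma on 4 arrays with Benjamini-Hochberg adjustment, adjusted p under 0.05). At an unadjusted p under 0.05 there were 14 members and 2968 genes. This fit contains 57 genes whose residual was 0, meaning the CAPE difference was identical in both lines within rounding, and these genes lower the degrees of freedom of limma's variance prior, which were 3.90 with them and 9.89 without them. With those 57 genes left out, 8 of the 41 passed, 6 lower and 2 higher, against 8.21% of 15137 genes. The 8 were CCNB1, CCNF, CCNA2, CCNE2, CDKN3 and RBL1, all lower, and CDKN2B and CCNG2, both higher. Below, "passed only without the zero-residual genes" refers to that second fit, and each SE is the moderated SE of the first fit over n = 2 lines. Over 10 settings of the fit the limma adjusted p lay between 0.00123 and 0.437 for CCNB1, 0.00448 and 0.437 for CCNG2, 0.00828 and 0.437 for CDKN2B and 0.00944 and 0.437 for CCNF. It lay between 0.0102 and 0.728 for CCNA2, 0.0228 and 0.728 for CDKN3, 0.0266 and 0.456 for RBL1 and 0.0284 and 0.569 for CCNE2. The number of arrays limits the precision of every value.

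**Figure D1:**
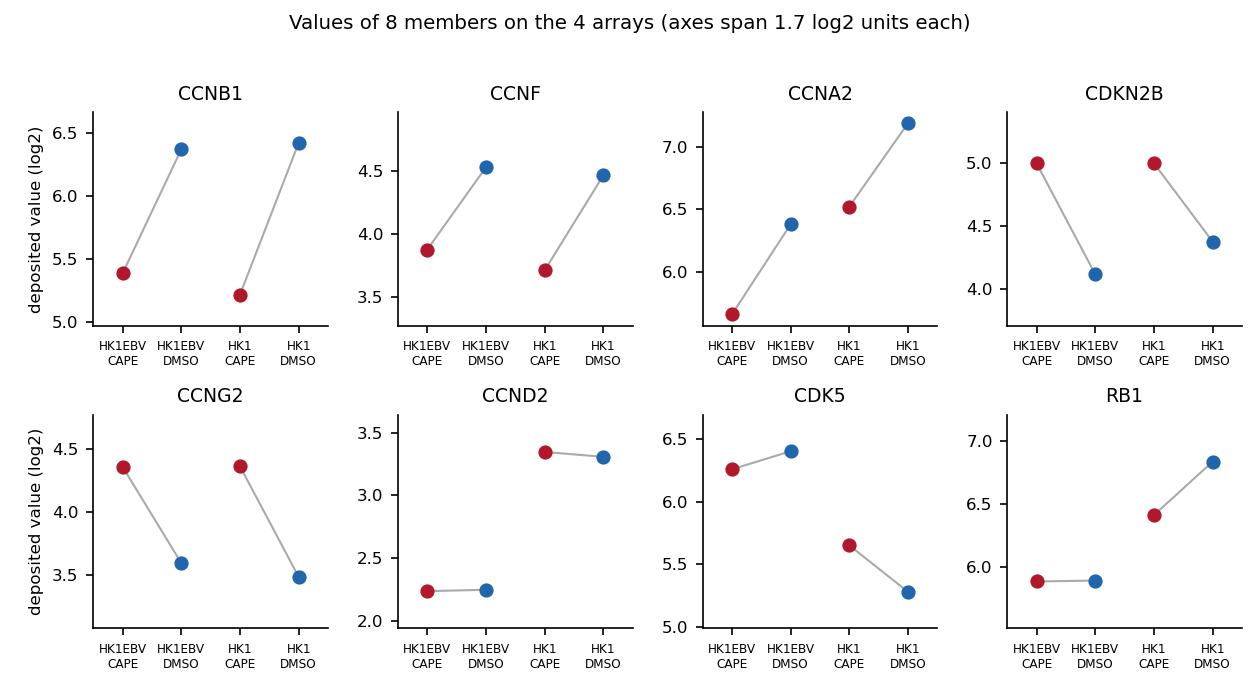
Deposited log2 values (vertical axis) of 8 genes on the 4 arrays, with CAPE in red and DMSO in blue and a grey line joining the arrays of 1 line. CCNB1, CCNF and CCNA2 are lower and CDKN2B and CCNG2 higher with CAPE in both lines, while CCND2, CDK5 and RB1 are separated by line.

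Of the G2 and mitosis class, all 4 genes were lower with CAPE in both lines, against 29.5% of all genes. The class medians were -0.48 in HK1EBV and -0.59 in HK1. In the first fit 0 of the 4 passed, against 0.00658% of all genes, and in the second 2 passed, against 8.21%. CCNB1, cyclin B1, the cyclin that activates CDK1 for mitotic entry, stood at 5.38 with CAPE and 6.37 with DMSO in HK1EBV, and at 5.21 with CAPE and 6.42 with DMSO in HK1. Both CAPE arrays lay below both DMSO arrays by about 1 log2 unit. Its mean difference was -1.10 ± 0.12, or 2.14-fold lower, the largest in size of the 41 (limma adjusted p = 0.0672, and 0.00123 without the zero-residual genes). CCNF, an F-box cyclin that works in a ubiquitin ligase and not with a CDK, stood at 3.88 with CAPE and 4.53 with DMSO in HK1EBV, and at 3.71 with CAPE and 4.47 with DMSO in HK1. The CAPE and DMSO values did not overlap, and the mean difference was -0.71 ± 0.11 (limma adjusted p = 0.0849, and 0.00944 without the zero-residual genes).

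CCNB2, the second B-type cyclin, differed by -0.31 in HK1EBV and -0.42 in HK1, at a mean of -0.37 ± 0.11 (limma adjusted p = 0.180). CDK1, the kinase of both B-type cyclins, differed by -0.17 and -0.23 in the same order. The difference of the kinase was thus the smallest of the 4 genes, and that of CCNB1 the largest, in each line.

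Of the S phase class, CCNA2, CCNE2 and CCNE1 were lower with CAPE in both lines, and the kinase CDK2 was not. The class medians were -0.49 in HK1EBV and -0.35 in HK1. CCNA2, cyclin A2, which serves CDK2 in S phase and CDK1 later, stood at 5.66 with CAPE and 6.38 with DMSO in HK1EBV, and at 6.52 with CAPE and 7.19 with DMSO in HK1. Within each line CAPE was lower, but the HK1 CAPE array lay above the HK1EBV DMSO array, so the treatments overlapped across lines. The mean difference was -0.69 ± 0.11 (limma adjusted p = 0.0849, and 0.0102 without the zero-residual genes).

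CCNE2, cyclin E2, stood at 4.55 with CAPE and 5.16 with DMSO in HK1EBV, and at 4.97 with CAPE and 5.46 with DMSO in HK1. Its differences of -0.60 and -0.49 put it past 1.5-fold in HK1EBV alone, and it passed only without the zero-residual genes (limma adjusted p = 0.108, and 0.0284 without them). CCNE1, cyclin E1, differed by -0.37 in HK1EBV and -0.21 in HK1. It stood at percentile 57.7 of all probe sets, below the fibroblast marker COL1A1 at 64.9, and was not shown to be above background. CDK2, the kinase shared by cyclins E and A, differed by -0.08 in HK1EBV and 0.14 in HK1, a mean of 0.03 ± 0.12.

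The G1 class had medians of -0.19 in HK1EBV and -0.14 in HK1. In either fit 0 of its 5 members passed, against 0.00658% of all genes in the first and 8.21% in the second. CCND1, cyclin D1, the D-type cyclin coupled to growth factor signalling, stood at 7.54 with CAPE and 8.27 with DMSO in HK1EBV, and at 8.25 with CAPE and 8.52 with DMSO in HK1. The HK1EBV CAPE array was the low one, and the other 3 lay within 0.28 of each other, at 8.25 to 8.52. Its mean difference was -0.50 ± 0.15 (limma adjusted p = 0.174). CDK6, a G1 kinase of the D-type cyclins, had the same shape, at 4.97 with CAPE and 5.65 with DMSO in HK1EBV, against 5.56 with CAPE and 5.70 with DMSO in HK1. Its mean difference was -0.41 ± 0.16 (limma adjusted p = 0.272).

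The other G1 genes differed less. CDK4, the second G1 kinase, differed by -0.19 in HK1EBV and -0.20 in HK1. CCND3, cyclin D3, was higher by 0.12 and 0.15, and CCND2, cyclin D2, differed by -0.01 and 0.04. The D-type cyclins thus had mean CAPE differences of -0.50 for CCND1, 0.01 for CCND2 and 0.14 for CCND3.

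**Figure D2:**
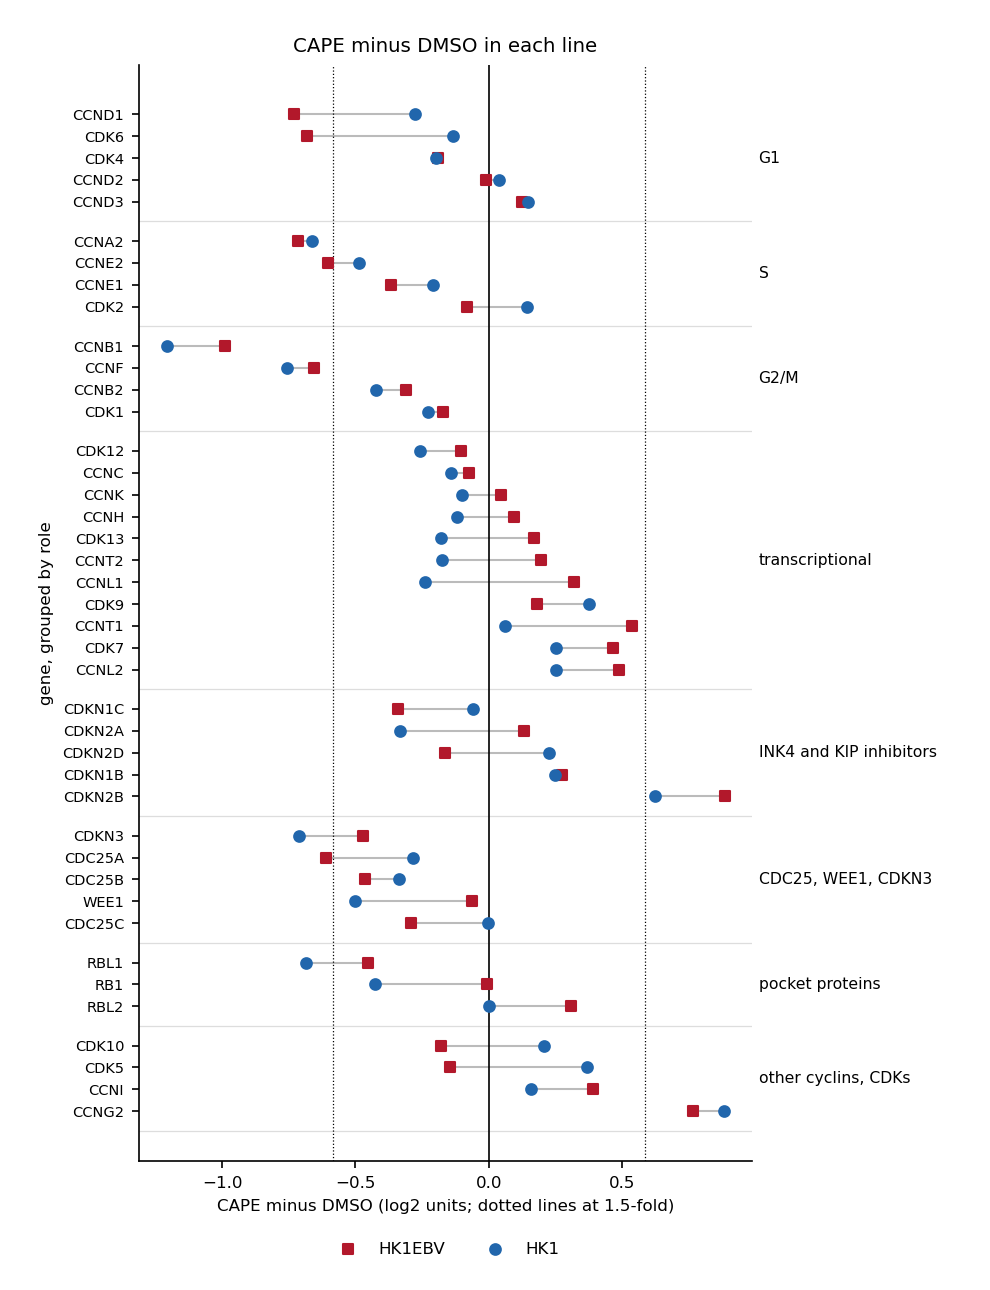
CAPE minus DMSO in log2 units (horizontal axis) for the 41 genes, grouped by role, in HK1EBV (red squares) and HK1 (blue circles). All 4 G2/M genes and all 5 genes of the CDC25, WEE1 and CDKN3 class lie left of 0 in both lines, and the transcriptional genes lie on both sides.

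Enzymes that phosphorylate or dephosphorylate CDKs had medians of -0.47 in HK1EBV and -0.34 in HK1. All 5 had a negative difference in both lines, against 29.5% of all genes, but CDC25C in HK1 and WEE1 in HK1EBV lay close to 0. In the first fit 0 passed, against 0.00658% of all genes, and in the second only CDKN3, against 8.21%. CDKN3, a phosphatase that removes the activating phosphate of CDK2, stood at 6.46 with CAPE and 6.93 with DMSO in HK1EBV, and at 5.65 with CAPE and 6.36 with DMSO in HK1. CAPE was lower within each line, while the HK1EBV CAPE array was above the HK1 DMSO array. Its mean difference was -0.59 ± 0.12 (limma adjusted p = 0.108, and 0.0228 without the zero-residual genes). CDC25A, the phosphatase that activates CDK2 at the G1/S border, stood at 3.81 with CAPE and 4.42 with DMSO in HK1EBV, and at 3.87 with CAPE and 4.15 with DMSO in HK1. Its CAPE values lay below its DMSO values, and it did not pass (limma adjusted p = 0.171, and 0.0768 without the zero-residual genes).

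CDC25B, which acts on CDK1 at the start of mitosis, differed by -0.47 in HK1EBV and -0.34 in HK1. CDC25C, which acts on CDK1 in mitosis, differed by -0.29 in HK1EBV and was nearly level in HK1, at a mean of -0.15. WEE1, the kinase that holds CDK1 inactive, differed by -0.06 in HK1EBV and -0.50 in HK1. The CDC25 phosphatases and WEE1 thus had negative values, with CDC25C in HK1 and WEE1 in HK1EBV too close to 0 to show a direction. PKMYT1, a further kinase of CDK1 counted with the CDK cofactors, differed by -0.15 in HK1EBV and 0.42 in HK1. The larger difference of WEE1 and CDKN3 was in HK1, and that of CDC25A, CDC25B and CDC25C in HK1EBV.

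The 5 INK4 and KIP inhibitors measured among the members had medians of 0.13 in HK1EBV and 0.22 in HK1, with the largest difference in CDKN2B. A further KIP inhibitor, CDKN1A (p21), is no member and was counted with the CDK cofactors, and its differences were 0.64 in HK1EBV and 0.97 in HK1, a mean of 0.81. CDKN2B encodes p15, the INK4 inhibitor that transforming growth factor beta induces in epithelial cells. It stood at 5.00 with CAPE and 4.11 with DMSO in HK1EBV, and at 5.00 with CAPE and 4.37 with DMSO in HK1. The CAPE arrays of both lines were at one level, above both DMSO arrays. The mean difference was 0.75 ± 0.12, or 1.69-fold higher (limma adjusted p = 0.0849, and 0.00828 without the zero-residual genes). CDKN2A, its neighbour on chromosome 9 that encodes p16 and ARF, differed by 0.13 in HK1EBV and -0.33 in HK1, and CDKN2D, which encodes p19, by -0.16 and 0.22.

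CDKN1B, which encodes the KIP inhibitor p27, stood at 6.23 with CAPE and 5.96 with DMSO in HK1EBV, and at 6.46 with CAPE and 6.22 with DMSO in HK1. The CAPE arrays lay above the DMSO arrays, by a small margin between HK1EBV with CAPE and HK1 with DMSO, and the mean difference was 0.26 ± 0.11 (limma adjusted p = 0.287). CDKN1C, which encodes the KIP inhibitor p57, differed by -0.34 and -0.06. Of the 5, 2 were thus higher in both lines, 1 was lower in both and 2 had opposite signs, and CDKN1A, outside this count, was higher in both. Over all genes the shares were 32.1% higher in both, 29.5% lower in both and 35.7% of opposite signs. CDKN2A, CDKN2D and CDKN1C stood at percentiles 64.0, 64.7 and 66.0 of all probe sets, near the fibroblast marker COL1A1 at 64.9. They were not shown to be above background, so their directions are uncertain. The class medians share this limit, being the values of CDKN2A in HK1EBV and CDKN2D in HK1.

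CCNG2, cyclin G2, an unusual cyclin known as a target of FOXO factors and linked to cell cycle arrest, had the largest positive mean difference of the 41. It stood at 4.36 with CAPE and 3.59 with DMSO in HK1EBV, and at 4.36 with CAPE and 3.48 with DMSO in HK1. The CAPE arrays again shared one level above the DMSO arrays. The mean difference was 0.82 ± 0.11, or 1.77-fold higher (limma adjusted p = 0.0746, and 0.00448 without the zero-residual genes). CCNI, cyclin I, stood at 8.98 with CAPE and 8.58 with DMSO in HK1EBV, and at 9.13 with CAPE and 8.97 with DMSO in HK1. CAPE was higher within each line, while HK1EBV with CAPE and HK1 with DMSO were nearly level (mean difference 0.28 ± 0.12, limma adjusted p = 0.305). CDK5, a kinase best known from neurons, differed by -0.14 in HK1EBV and 0.37 in HK1, and CDK10, the kinase of cyclin Q, by -0.18 and 0.21.

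The pocket proteins, which hold E2F factors until CDKs phosphorylate them, did not move as one. RBL1, which encodes p107 and is itself an E2F target, stood at 5.98 with CAPE and 6.44 with DMSO in HK1EBV, and at 5.82 with CAPE and 6.51 with DMSO in HK1. The CAPE values lay below the DMSO values, with a mean difference of -0.57 ± 0.12 (limma adjusted p = 0.11, and 0.0266 without the zero-residual genes). RB1, the retinoblastoma gene, stood at 5.88 with CAPE and 5.89 with DMSO in HK1EBV, and at 6.41 with CAPE and 6.84 with DMSO in HK1, so its CAPE difference was -0.01 and -0.43. RBL2, which encodes p130 of resting cells, differed by 0.31 in HK1EBV and 0.00 in HK1.

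Among the cyclins and CDKs of transcription, 0 of the 11 measured reached 1.5-fold with CAPE in either line. The share of all genes that did so in a single line was not counted. Their medians were 0.18 in HK1EBV and -0.12 in HK1. Of the 11, 4 were higher in both lines (32.1% of all genes), 2 lower in both (29.5%) and 5 of opposite sign (35.7%). CCNL2, cyclin L2, which works in RNA splicing, stood at 4.89 with CAPE and 4.41 with DMSO in HK1EBV, and at 4.63 with CAPE and 4.38 with DMSO in HK1. CDK7, the kinase that activates other CDKs and sits in the factor TFIIH, stood at 5.32 with CAPE and 4.86 with DMSO in HK1EBV, and at 5.32 with CAPE and 5.07 with DMSO in HK1. For both genes the CAPE arrays were above the DMSO arrays, at means of 0.37 ± 0.12 and 0.36 ± 0.12 (limma adjusted p = 0.201 for CCNL2 and 0.204 for CDK7).

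Partners within a complex were also set side by side, as values with no test of one gene against another. CDK9, the kinase of elongation, was higher by 0.18 in HK1EBV and 0.38 in HK1, and its cyclins CCNT1 and CCNT2 differed by 0.54 and 0.20 in HK1EBV and by 0.06 and -0.18 in HK1. CCNH, the cyclin of CDK7, differed by 0.10 in HK1EBV and -0.12 in HK1. CCNK, the cyclin of CDK12 and CDK13, differed by 0.04 and -0.10, CDK12 by -0.10 and -0.26 and CDK13 by 0.17 and -0.18. CCNC, a cyclin of the Mediator complex, differed by -0.08 and -0.14.

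CAPE minus DMSO was then compared between the lines. No member (0 of 41) had CAPE changes that differed by at least 1.5-fold between the lines, against 6.3% of all genes. The widest gap was that of CCNL1, cyclin L1, which stood at 5.12 with CAPE and 4.80 with DMSO in HK1EBV, and at 4.66 with CAPE and 4.90 with DMSO in HK1. Its change was thus 0.32 in HK1EBV and -0.24 in HK1. The gap for CDK6 was of like size, at -0.54 (HK1EBV change minus HK1 change), followed by CDK5 at -0.51. With 1 array in each group these gaps had no test. In 18 of the 41 genes the CAPE difference was larger in size in HK1EBV, and in the others in HK1. The share over all genes was not counted, so this split is not read as a trait of these genes.

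**Figure D3:**
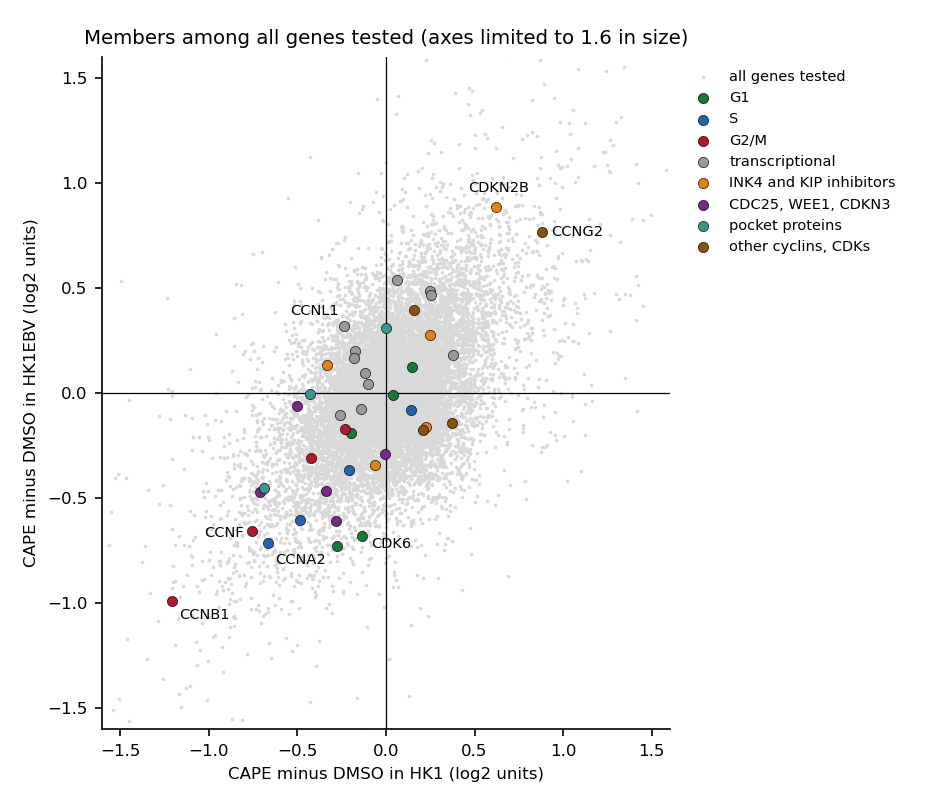
CAPE minus DMSO in HK1 (horizontal axis) and in HK1EBV (vertical axis), in log2 units, for all genes tested (grey) and for the 41 genes, coloured by role. CCNB1, CCNF and CCNA2 lie in the lower left, CDKN2B and CCNG2 in the upper right, and CCNL1 and CDK6 are those with the widest gaps between the lines.

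The second comparison asked how HK1EBV differed from HK1 in the same genes. CCND2 and CCNA2 were at least 1.5-fold lower in HK1EBV than in HK1 in both treatments, and CDK5 at least 1.5-fold higher. That is 2 of 41 lower, against 2.22% of all genes, and 1 of 41 higher, against 2.06%. Whatever the size, 14 were lower in both treatments (31.7% of all genes), 12 higher in both (33.2%) and 14 of opposite sign (32.7%), while CDKN2B was level between the lines with CAPE. In the limma test 2 of the 41 passed, CCND2 and CCNA2, against 2.9% of all genes, and at an unadjusted p under 0.05 there were 14 members and 3503 genes. Without the 57 zero-residual genes, 7 passed, against 11.6%, namely CCND2, CCNA2, CCNK, CCNT2 and RB1, lower in HK1EBV, and CDKN3 and CDK5, higher. Over the 10 settings the limma adjusted p lay between 0.00058 and 0.135 for CCND2 and 0.00258 and 0.423 for CCNA2, each of which passed in 8. It lay between 0.00456 and 0.228 for CDK5, 0.0079 and 0.447 for CDKN3, 0.00811 and 0.269 for RB1, 0.0127 and 0.23 for CCNT2 and 0.035 and 0.248 for CCNK.

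CCND2, cyclin D2, stood at 2.24 with CAPE and 2.25 with DMSO in HK1EBV, against 3.35 with CAPE and 3.31 with DMSO in HK1. The arrays of each line were within 0.04 of each other, and the lines did not overlap. It was lower in HK1EBV by a mean of -1.08 ± 0.11 (moderated SE, n = 2 treatments), or 2.12-fold (limma adjusted p = 0.0332). Its HK1EBV values lay within the range of the leukocyte marker CD14 over the 4 arrays, 2.05 to 2.26, and were not shown to be above background, so the size of the difference may be a lower bound. CCNA2, with the values given above, differed by -0.86 with CAPE and -0.81 with DMSO, a mean of -0.83 ± 0.11 (limma adjusted p = 0.0450). For CCNA2 the order of the 4 arrays was thus HK1EBV CAPE, HK1EBV DMSO, HK1 CAPE and HK1 DMSO from low to high.

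CDK5 stood at 6.26 with CAPE and 6.40 with DMSO in HK1EBV, against 5.65 with CAPE and 5.28 with DMSO in HK1. HK1EBV was higher in both treatments, by 0.61 with CAPE and 1.12 with DMSO (mean 0.86 ± 0.16, limma adjusted p = 0.0651, and 0.00456 without the zero-residual genes). Between the lines CDK5R1, the activator of CDK5, differed by -0.04 with CAPE and 0.18 with DMSO. CDKN3 was higher in HK1EBV by 0.81 with CAPE and 0.57 with DMSO, just short of 1.5-fold in DMSO (limma adjusted p = 0.0609, and 0.00790 without the zero-residual genes). The cyclin gene CCNT2 differed by -0.47 with CAPE and -0.85 with DMSO (HK1EBV minus HK1), and CCNK by -0.42 and -0.56.

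RB1 was lower in HK1EBV, at -0.53 with CAPE and -0.95 with DMSO in log2 units (limma adjusted p = 0.0716, and 0.00811 without the zero-residual genes). RB1 lies on chromosome 13, a chromosome on which other listed genes of the pathway were lower in HK1EBV too. There TFDP1, a partner of E2F factors, differed by -1.02 with CAPE and -0.74 with DMSO, CUL4A by -0.76 and -0.93, CDC16 by -0.75 and -0.92 and BORA by -0.47 and -0.64. The cyclin gene CCNA1 on the same chromosome read 1.05 to 1.28 on the 4 arrays, close to or below the endothelial marker VWF, and at that level shows no direction. Gene copy number was not measured, and its part in these differences was not tested.

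G2 and mitosis genes did not share the direction of CCNA2 between the lines. CDK1 was higher in HK1EBV by 0.42 with CAPE and 0.36 with DMSO, CCNB2 by 0.30 and 0.19 and CCNF by 0.17 and 0.06, and CCNB1 differed by 0.17 and -0.05. Of the G1 genes, CCND3 and CDK4 were higher in HK1EBV by 0.21 and 0.25 with CAPE and by 0.23 and 0.24 with DMSO. CCND1 differed by -0.71 with CAPE and -0.26 with DMSO, and CDK6 by -0.60 and -0.05. These line differences and the CAPE differences above share all 4 arrays.

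**Figure D4:**
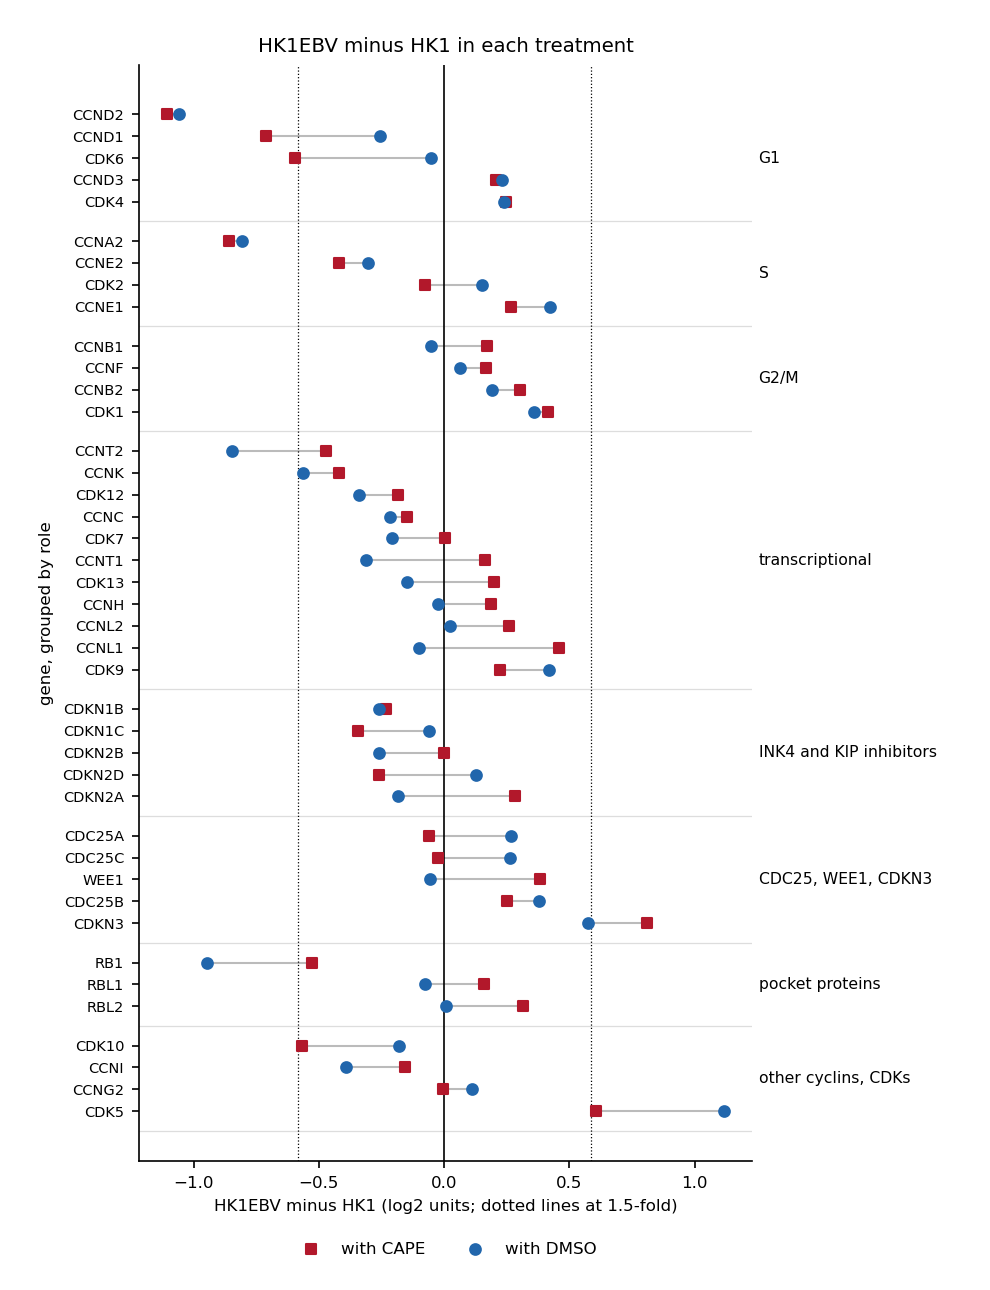
HK1EBV minus HK1 in log2 units (horizontal axis) for the 41 genes, grouped by role, with CAPE (red squares) and with DMSO (blue circles). CCND2 and CCNA2 lie left of the 1.5-fold line and CDK5 right of it in both treatments.

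Other genes of the same pathway were read from 6 lists of 103 genes in all, of which 92 were tested. With CAPE 0 of the 92 passed in the first fit, against 0.00658% of all genes. Without the zero-residual genes 7 passed as lower and 3 as higher, against 8.21%. The 7 were PLK1, CDC20, UBE2S, AURKA, SKP2, ANAPC4 and BORA, and the 3 were CDKN1A, LIN37 and CCNDBP1. By size, 2 of the 92 were at least 1.5-fold lower in both lines, against 1.56% of all genes, and 1 of the 92 higher, against 1.35%. PLK1, the polo-like kinase of mitotic entry, differed by -0.92 in HK1EBV and -1.15 in HK1 (limma adjusted p = 0.0672, and 0.00173 without the zero-residual genes). CDC20, the activator of the anaphase-promoting complex that destroys cyclin B, differed by -0.80 and -0.89 (limma adjusted p = 0.0704, and 0.00386 without them). CDKN1A, with the differences given above, was the 1 higher (limma adjusted p = 0.0849, and 0.00669 without them).

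The list of mitotic entry kinases had medians of -0.22 in HK1EBV and -0.23 in HK1. In it 9 of 13 were lower in both lines, against 29.5% of all genes. AURKA, the Aurora A kinase, differed by -0.35 and -0.82, and its partner BORA by -0.43 and -0.60. Of the ubiquitin ligase list, with medians of -0.17 and -0.15, 13 of 24 were lower in both lines, against the same 29.5%. UBE2S, a ubiquitin-conjugating enzyme of the anaphase-promoting complex, differed by -0.70 and -0.52. SKP2, the receptor that marks p27 for destruction, differed by -0.64 and -0.48. The E2F and DREAM list had medians of -0.12 and -0.14. Of its 17 genes tested, 9 were lower in both lines and 4 higher in both, against 29.5% and 32.1% of all genes. TFDP1 differed by -0.60 and -0.32, LIN9 by -0.16 and -0.48 and E2F6 by -0.33 and -0.25. LIN37, a subunit of DREAM, was higher by 0.85 and 0.47.

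Cofactors of CDKs had medians of 0.00 in HK1EBV and 0.02 in HK1. CCNDBP1, a protein that binds cyclin D1, was higher by 0.44 and 0.56, and CDK5R1 differed by -0.44 and -0.23. Further cyclins had medians of 0.00 and 0.05, and further CDKs of 0.07 and -0.02. In those 2 lists 0 of 19 genes tested passed for CAPE in either fit. Of all genes, 0.00658% passed in the first fit and 8.21% in the second, so 0 of 19 does not set these lists apart.

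Between the lines, 7 of the 92 passed in the first fit, 4 higher and 3 lower in HK1EBV, against 2.9% of all genes. CDK14, a membrane-linked CDK, stood at 3.04 with CAPE and 2.91 with DMSO in HK1EBV, against 1.19 with CAPE and 1.21 with DMSO in HK1 (mean difference 1.78, limma adjusted p = 0.0184). Its HK1 values lay below those of the endothelial marker VWF and were not shown to be above background, so the difference may be a lower bound. TFDP2 was higher in HK1EBV by a mean of 1.02, CKS2 by 0.82 and ANAPC10 by 0.82 (limma adjusted p = 0.0363, 0.0450 and 0.0450), and the 3 lower were TFDP1, CUL4A and CDC16, given above. Without the zero-residual genes 13 were higher and 5 lower, against 11.6% of all genes.

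**Figure D5:**
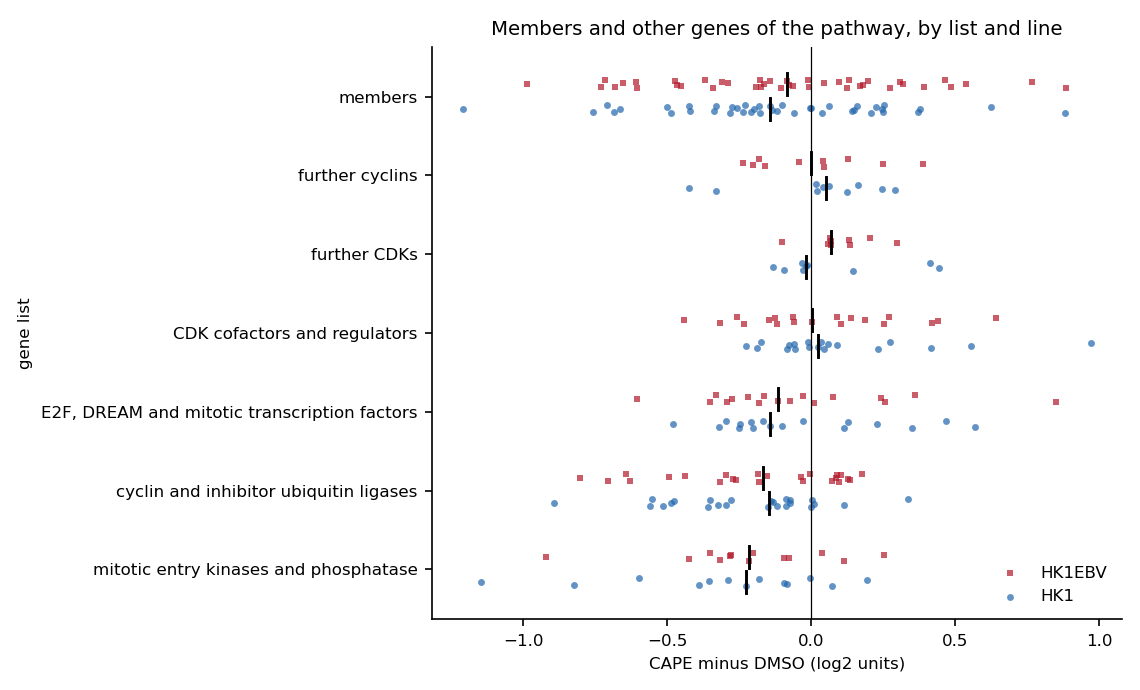
CAPE minus DMSO in log2 units (horizontal axis) for the 41 genes and for 6 lists of other pathway genes, in HK1EBV (red squares) and HK1 (blue circles), 1 point for each gene, with black bars at the medians. The medians of the mitotic entry list lie at -0.22 in HK1EBV and -0.23 in HK1, and those of the cofactor list at 0.00 and 0.02.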

How the data were processed

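RNA was measured on 4 arrays, 1 for each combination of cell line and treatment. The authors made the deposited log2 values with RMA, per the submitters' processing notes, a method that removes background, brings the arrays to a common distribution and combines probes. Its version and any later shift of the scale were not given, so levels of different genes were set side by side only as percentile ranks of markers and to show where a probe lay near the floor. The files used hold no detection call. Probe sets numbered 25800, and the 18612 that the platform table ties to a single symbol were used. A gene was read from its probe set of highest mean, and entered the test if that mean was at or above percentile 25 of the array's probe sets.

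Version 3.58.1 of limma (R 4.3.3; lmFit, eBayes, two-sided) was fitted with a term for the line and a term for CAPE, which left 1 residual degree of freedom, and p-values were adjusted by Benjamini-Hochberg over all 15194 genes. The script was tested on simulated data. Noise was simulated for every gene, so that test does not bear on the zero-residual genes or on the counts that depend on them. Differences within 1 line or 1 treatment had no test. Values on all 4 arrays are given for members at least 1.5-fold apart in both pairs, those that passed, and the 2 of each class with the largest mean CAPE difference; other pathway genes are up to 3 per list and direction. CCNL1, ANAPC4, CCNA1, PKMYT1 and the promoters shown were chosen after their values were seen. Alternatives were other filters, scalings, probe set rules, variance priors, thresholds and no block. Leaving out an array would have emptied a group. The members and lists were chosen with earlier results of these data known. Of the listed genes, 6 other pathway genes and 2 markers were not analysed here, and 1 promoter is not reported here.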

Additional observations from a re-analysis of the deposited data

Results flagged for a closer look

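CCNL1, cyclin L1, was marked because its CAPE change had opposite signs in the lines and was at least 0.2 in size in each, at 0.32 in HK1EBV and -0.24 in HK1. The change in HK1EBV minus that in HK1 was 0.56, and with 1 array in each group this difference was not tested. Of the 41 genes, 12 had opposite signs, and the other 11 were smaller than 0.2 in at least 1 line.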

How the results depend on the processing

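Under other scalings and probe set rules 0 of 48 class medians moved by more than 0.094, the median residual SD over genes, and the largest shift was 0.048. The near-zero median of the pocket proteins in HK1EBV, -0.0075, turned to 0.0103 with arrays shifted to one median, and the other class medians kept their sign. The counts from limma did depend on the setting. For CAPE, 1 gene and 0 of the 41 passed, and counts of genes and members were 0 and 0 with no filter or no block and 7 and 0 with a trend in the variance prior. They were 894 and 8 with the filter at the 50th percentile, 1243 and 8 without genes of zero residual, 1006 and 8 with arrays shifted to one median, 755 and 8 after quantile normalization, 379 and 5 with a robust prior and 544 and 5 at an adjusted p under 0.10. For HK1EBV against HK1, 440 genes and 2 members passed, and the counts were 0 and 0 with no filter or no block, 1296 and 7 with the filter at the 50th percentile and 1756 and 7 without genes of zero residual. They were 1526 and 6 with shifted arrays, 1321 and 7 after quantile normalization, 959 and 6 with a robust prior and 1390 and 7 at an adjusted p under 0.10. Shifting or quantile normalization alters the values that gave a residual of 0; beyond that, the cause was not tested.

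Members lower with CAPE in both lines numbered 7 at a ratio of 5 to 4 and 0 at 2-fold, against 3 at 1.5-fold, and those higher 0 at 2-fold, against 2. Members lower in HK1EBV in both treatments numbered 5 at a ratio of 5 to 4 and 1 at 2-fold, against 2, and those higher 3 at a ratio of 5 to 4 and 0 at 2-fold or after quantile normalization, against 1. Over all settings the limma adjusted p lay between 0.00123 and 0.437 for CCNB1 with CAPE, and between 0.00058 and 0.135 for CCND2 and 0.00258 and 0.423 for CCNA2 between the lines. No replicate array exists, so precision rests on 4 arrays.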
